A study of Mus musculus with 12 samples.

Results

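The genes described here are 10 receptors, ligands and regulators of the epidermal growth factor (EGF) and fibroblast growth factor (FGF) pathways: *Fgfr1*, *Fgfr2*, *Fgfr3*, *Fgfr4*, *Egfr*, *Erbb2*, *Erbb3*, *Lrig1*, *Areg* and *Ereg*. They are 10 of 21774 protein-coding genes in the RefSeq annotation of GRCm38.p6 (the sequence of mm10). Peaks were assigned to a gene when they touched its body or the 5 kb on either side, which gave 137 of the 169072 peaks in 8 lists. The lists come from chromatin immunoprecipitation sequencing (ChIP-seq) of mouse small intestine, in which crypts, the proliferating compartment that holds the stem cells, were compared with villi, which carry the differentiated absorptive cells. H3K4me3, H3K4me1, H3K27me3 and H3K9me3 were each profiled in 1 library per compartment, as part of a study of proteolytic cleavage of the histone H3 tail. The labels and methods used here give no strain, age, treatment or genotype for these samples. Villi were scraped off and crypts were released with EDTA, so neither preparation was sorted. With 1 library per group no difference below has a replicate check and no test was possible. Each value is a description of these libraries.

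EGF family ligands such as amphiregulin (*Areg*) and epiregulin (*Ereg*) bind EGFR, which signals as a dimer with itself or with its relatives ERBB2, which has no known ligand of its own, and ERBB3, whose kinase domain is nearly inactive. FGF receptors are likewise receptor tyrosine kinases and engage the same RAS and MAP kinase route. In the intestine EGF signalling maintains the stem cells and the dividing crypt cells, and LRIG1 is a transmembrane protein that lowers the level of EGF receptors and marks crypt base cells. H3K4me3 is found at active promoters and at promoters poised for use, H3K4me1 at enhancers and beside promoters, H3K27me3 at genes silenced by Polycomb, and H3K9me3 in heterochromatin.

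The genes were chosen by their pathway role with the peak calls of these lists known, and *Fgfr2* was selected on the score of an H3K4me3 peak, the strongest present in crypts alone, said to lie inside an intron. That peak does not lie in *Fgfr2* as RefSeq draws it. RefSeq gives *Fgfr2* as chr7:130162451-130266808 on the minus strand, 104358 bp long. GENCODE M21 gives the same gene as chr7:130162451-133123350, 2.96 Mb, because 1 of its 27 transcripts, with 7 exons and a support level of 5, starts far upstream. The other transcripts reach no further than 130266263. The long span holds 30 other RefSeq protein-coding genes. The peak in question (chr7:131031915-131035909, 3995 bp, score 126.45) begins 765 kb from the RefSeq start site of *Fgfr2* and covers the start site of *Dmbt1* at 131032069, a gene for a secreted mucosal scavenger receptor protein. The score is the −log10 of the p-value that the authors' peak caller attached to each peak, with 10 as the lowest value in the lists. This peak ranked 1 of the 1101 crypts H3K4me3 peaks that touched no villi H3K4me3 peak, and 9382 of all 16489 crypts H3K4me3 peaks. The nearest villi H3K4me3 peak was 40163 bp away, whereas H3K4me1 covered the place in both compartments, in a peak of 14219 bp in crypts and one of 7496 bp in villi. It is therefore described as the *Dmbt1* start-site peak, and nothing about *Fgfr2* is read from it. RefSeq models are used for all genes below, a choice made after this was seen.

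**Figure D1:**
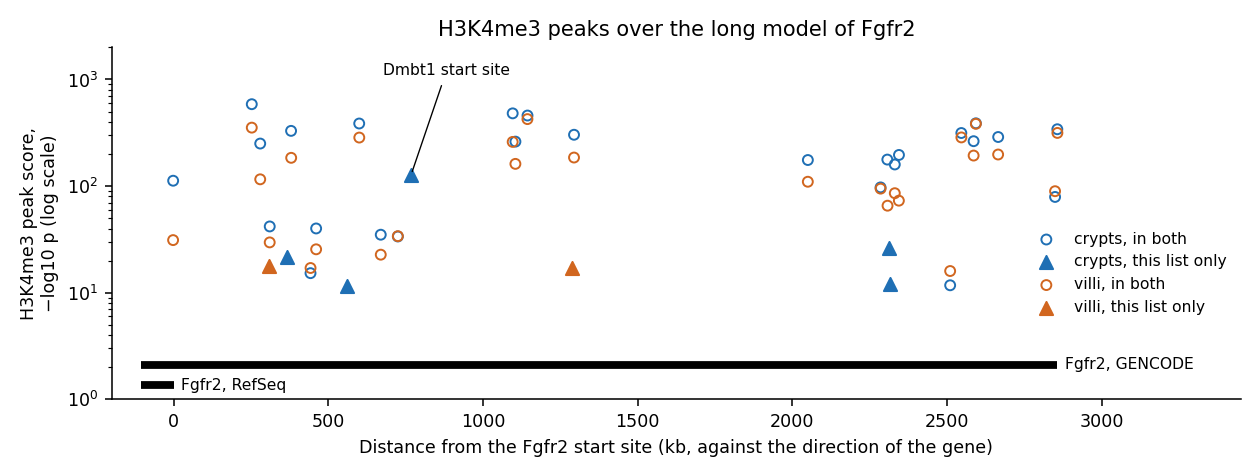
H3K4me3 peaks over the GENCODE span of *Fgfr2*, by distance of the peak centre from the RefSeq start site (kb) and score (−log10 p, log axis), with filled triangles for peaks that have no overlapping peak in the other compartment and black bars for the extent of the gene models. Within the RefSeq gene there is 1 H3K4me3 peak per compartment, in both lists, and the highest crypts-only peak, with a score of 126.45, sits at the *Dmbt1* start site.

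Sequences are shown for the places on which the description turns. RefSeq promoter windows of 300 bases (250 before and 50 after a start site, GRCm38.p6) were at hand for 7 of the 10 genes, in 8 windows. The *Fgfr2* window (chr7:130266759-130267058, minus strand) is shown because it was free of H3K4me3 and almost filled with H3K27me3, that of *Lrig1* (chr6:94700096-94700395, minus strand) because it sat inside one of the widest H3K4me3 peaks, and that of *Areg* (chr5:91139349-91139648, plus strand) because its H3K4me3 peak was wider in villi. The *Fgfr1* sequence is the centre of an H3K4me3 peak found in both compartments within an intron (chr8:25543356-25543655, plus strand). Capitals mark CG dinucleotides (CpG), each sequence being written 5′ to 3′.
Fgfr2: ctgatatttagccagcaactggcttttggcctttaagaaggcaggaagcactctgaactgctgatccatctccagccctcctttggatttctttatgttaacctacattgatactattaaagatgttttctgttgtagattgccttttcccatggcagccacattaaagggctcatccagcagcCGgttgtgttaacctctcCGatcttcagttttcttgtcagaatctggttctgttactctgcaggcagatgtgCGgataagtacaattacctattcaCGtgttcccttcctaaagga
Lrig1: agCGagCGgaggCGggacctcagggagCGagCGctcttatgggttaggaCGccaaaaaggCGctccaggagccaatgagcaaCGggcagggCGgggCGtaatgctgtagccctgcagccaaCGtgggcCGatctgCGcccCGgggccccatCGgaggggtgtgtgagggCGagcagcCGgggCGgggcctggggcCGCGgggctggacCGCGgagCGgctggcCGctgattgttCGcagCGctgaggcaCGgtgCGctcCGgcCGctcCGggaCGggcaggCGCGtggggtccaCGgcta
Areg: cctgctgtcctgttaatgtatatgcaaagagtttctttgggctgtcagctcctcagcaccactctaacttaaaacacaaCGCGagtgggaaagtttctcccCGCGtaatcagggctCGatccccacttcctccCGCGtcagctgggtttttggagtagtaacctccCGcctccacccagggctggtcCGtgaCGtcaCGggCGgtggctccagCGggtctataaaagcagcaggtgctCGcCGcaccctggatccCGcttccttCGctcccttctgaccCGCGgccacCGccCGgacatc
Fgfr1: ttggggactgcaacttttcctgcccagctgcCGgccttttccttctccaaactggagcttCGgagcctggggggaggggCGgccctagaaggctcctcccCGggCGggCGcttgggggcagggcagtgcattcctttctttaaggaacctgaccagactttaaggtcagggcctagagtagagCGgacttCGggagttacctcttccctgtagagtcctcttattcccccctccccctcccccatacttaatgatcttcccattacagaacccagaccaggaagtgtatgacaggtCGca

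The *Fgfr2* window held 4 CpG in 43.7% G and C, below the median of 7 CpG and 52.7% over the 32851 windows of the promoter table. The *Lrig1* window held 35 CpG, and 93.8% of all windows had no more than that. *Areg* and *Erbb2* had 21 CpG each, *Fgfr4* 20, *Egfr* 15, and the *Fgfr3* windows 26 and 30. Thus *Fgfr2* alone among the 7 genes had a window poorer in CpG than the median. This holds for the window at the RefSeq start, 130266808. The GENCODE transcripts other than the long one reach no further than 130266263, inside the H3K4me3 peak of both compartments. No window was taken there. The H3K4me3 peak that begins 118 bp inside *Fgfr2* in crypts was itself rich in CpG, with 174 of them in 2719 bp and an observed to expected ratio of 0.717, against a median of 0.595 over all crypts H3K4me3 peaks. The intronic *Fgfr1* sequence had 9 CpG and a ratio of 0.358. Among the letters searched on both strands, GGGCGG (the GC box) occurred in 6 of the 8 windows, of 5 genes, and in 35.7% of all windows. TATAAA (the TATA box) and TGACGTCA (the cyclic AMP response element) occurred in the *Areg* window alone, 31 and 61 bases before the start site, and in 13.6% and 1.79% of all windows. CTTTGAT (a TCF/LEF site) occurred in none of the 8 windows and in 3.73% of all. No match of one motif overlapped a match of another, and a match describes the letters only.

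By H3K4me3 and H3K27me3, all 10 genes had the same promoter state in crypts and in villi, as did 93.9% of all protein-coding genes, a promoter being counted as marked when a peak came within 1 kb of one of its RefSeq start sites. *Fgfr3*, *Fgfr4*, *Egfr*, *Erbb2*, *Erbb3*, *Lrig1*, *Areg* and *Ereg* carried H3K4me3 without H3K27me3, a state found in 50.8% of all protein-coding genes in crypts and 49.8% in villi. *Fgfr2* carried both, as did 6.13% of genes in crypts and 7.29% in villi. *Fgfr1* carried H3K27me3 alone, as did 6.56% and 8.26%. Counted by mark, H3K4me3 was at 9 of 10 promoters in each compartment (57.0% of all genes in crypts, 57.1% in villi). H3K27me3 was at 2 of 10 (12.7% and 15.6%). H3K4me1 was at 8 in crypts and 10 in villi (56.4% and 54.4%), the difference being *Fgfr1* and *Lrig1*. Over all genes, 4.21% had an H3K4me1 promoter peak in villi alone and 6.15% in crypts alone. At *Lrig1* this turns on the 1 kb limit, since crypts H3K4me1 peaks shared with villi lay 1290 bp inside the gene and upstream beyond 1 kb, and within 2 kb the crypts count was 9. None of the 10 windows held an H3K9me3 peak in either compartment, while 3.83% of all gene windows did in crypts and 3.09% in villi. With only the upper 50% of each list by score, the H3K4me3 calls at *Fgfr2*, *Fgfr4*, *Areg* and *Ereg* were lost in both compartments, leaving 5 of 10, and with them the joint call at *Fgfr2*, and the H3K27me3 calls at *Fgfr1* and *Fgfr2* were lost in crypts. In unsorted tissue, more cells with a mark and more of the mark per cell cannot be told apart, nor can both marks on one allele and each mark in different cells. The study also reports H3 tail cleavage in villi. It gives lower intensity there for the marks nearest the tail end, with H3K27me3 kept at repressed promoters. The part of such loss in the differences between crypts and villi was not tested and cannot be told apart from these.

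Of the peaks over the 10 genes, 15 in crypts and 14 in villi were of H3K4me3, and 1 in each list had no overlapping peak in the other compartment (6.68% of all crypts H3K4me3 peaks and 9.37% of all villi ones had none). For H3K4me1 these numbers were 7 of 48 in crypts and 8 of 53 in villi, against 18.3% and 17.9% of all peaks. For H3K27me3 they were 0 of 4 in crypts and 0 of 3 in villi, against 9.63% and 55.6%. The shares of H3K4me1 are near those of the whole lists, and for the other marks the counts are too small to set beside them. These counts depend on what is called shared. With a reciprocal overlap of 50% they became 2 of 15 for crypts H3K4me3 (10.6% of the whole list), 11 of 48 and 16 of 53 for H3K4me1 (31.9% and 32.7%), and 3 of 4 and 2 of 3 for H3K27me3 (44.3% and 69.3%). With peaks under 1 kb apart merged, 4 of 41 villi H3K4me1 peaks had no counterpart (16.9%). The lists hold fewer peaks than the numbers in their peak names reach (16489 against 17844 for crypts H3K4me3, 7611 against 16211 for crypts H3K27me3), so peaks had been removed after calling by a step not given in the sources used here, and a peak without counterpart may have had one among those removed. Leaving out peaks within 1 kb of any start site, 7 of 36 distal H3K4me1 peaks (19.4%) were found in crypts alone and 7 of 39 (17.9%) in villi alone, while over the whole lists the shares were 19.0% and 20.3%.

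*Fgfr1*, the FGF receptor best known from mesenchymal tissues, was marked by H3K27me3 at its start site (chr8:25518759, plus strand) and had no H3K4me3 there. The H3K27me3 peak over the start site was 2928 bp wide in crypts (chr8:25517106-25520033, score 14.3) and 6978 bp in villi (chr8:25516067-25523044, score 23.0). Of 4736 H3K27me3 peaks with a single partner in the other compartment, 87.3% had a lower villi to crypts ratio of widths, and 79.2% of those pairs were wider in villi. A smaller H3K27me3 peak lay upstream, 1154 bp in crypts and 1432 bp in villi. A villi H3K4me1 peak of 978 bp covered the start site and had no counterpart in crypts, at a score of 11.8. Away from the start, both compartments shared an H3K4me3 peak 24523 bp downstream of it in crypts and 24486 bp in villi, 513 and 486 bp wide with scores of 18.8 and 20.1. H3K4me1 overlapped it in both, its crypts peak having a width of 845 bp and its villi peak 603 bp. This intronic place has no RefSeq protein-coding start site within 1 kb, and it is the only H3K4me3 over *Fgfr1*.

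*Fgfr2*, whose epithelial splice form binds FGF7 and FGF10, showed H3K4me3 and H3K27me3 on the same stretch of DNA. The H3K4me3 peak was 2719 bp wide in crypts (chr7:130263972-130266690) and 2568 bp in villi (chr7:130263854-130266421). H3K27me3 lay on 61.3% of that peak in crypts, in peaks of 1304 and 719 bp, and on 100% of it in villi, in 1 peak of 3633 bp. Among all H3K4me3 peaks at start sites, 10.3% in crypts and 12.02% in villi were touched by H3K27me3 at all. The 300-base window printed above was under H3K27me3 for 289 bases in crypts and 278 in villi, and under H3K4me3 for 0 in both. That depends on the RefSeq start at 130266808. The furthest point that the GENCODE transcripts other than the long one reach, 130266263, was under H3K4me3 in both compartments. The score of the H3K4me3 peak was 112 in crypts and 31.1 in villi, at nearly equal width. Only 0.410% of 11208 start-site pairs had a lower villi to crypts score ratio, and the score depends on read depth, which is unknown. H3K4me1 at the start site went the other way, with a score of 19.7 in crypts and 31.4 in villi.

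The gene body of *Fgfr2* held more H3K4me1 peaks in crypts. There were 7 in crypts, 4 of them without counterpart, and 3 in villi, all shared. Of all H3K4me1 peaks, 18.3% in crypts and 17.9% in villi had no counterpart. A crypts H3K4me1 peak without counterpart was in 26.6% of all gene windows. The 4 crypts peaks lay 7483, 12600, 21496 and 81302 bp into the gene, were 427 to 900 bp wide and had scores of 10.2 to 15.7, 3 of them under 11 and so close to the lower limit of the list. The villi peak 71304 bp into the gene had a score of 10.0028, the lowest of all 137 peaks. The genes whose share of window under peaks was most like that of *Fgfr2* over the 8 lists were *Crocc*, *Pkd2l1* and *Arhgef12*, at summed absolute differences of 2.57, 3.42 and 3.45 percentage points.

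**Figure D2:**
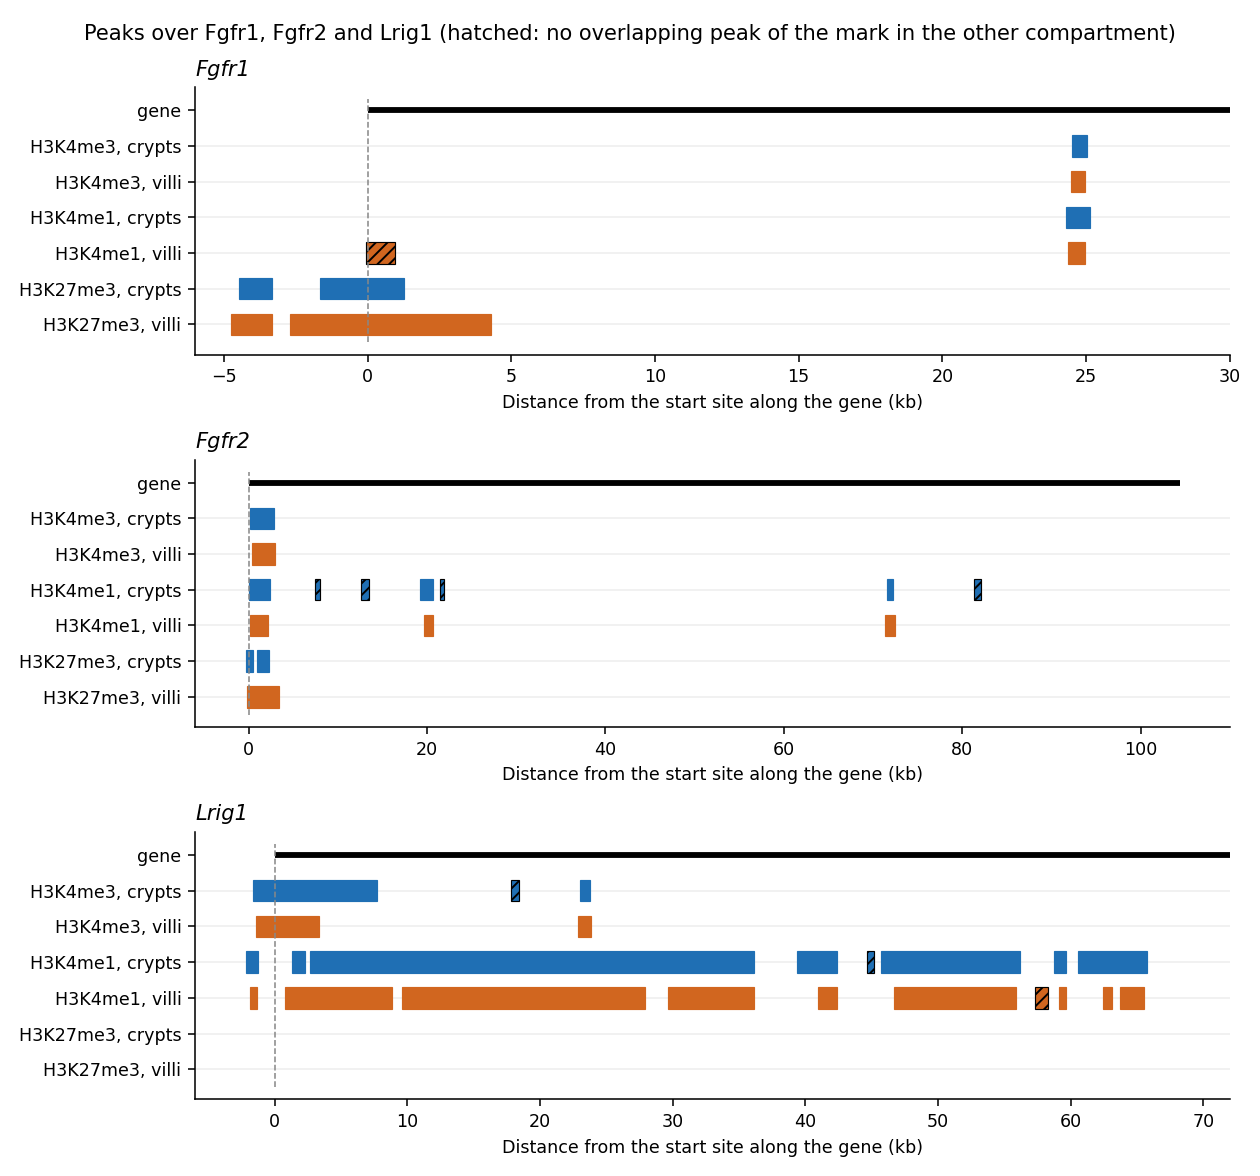
Peaks over *Fgfr1*, *Fgfr2* and *Lrig1* by distance from the start site along the gene (kb), 1 row per mark and compartment, blue for crypts and orange for villi, with hatching where the other compartment has no overlapping peak of the mark. H3K27me3 spans the start of *Fgfr1*, widening from 2928 to 6978 bp, and overlaps H3K4me3 at the start of *Fgfr2*, while *Lrig1* has none and its H3K4me1 lies in separate peaks in both compartments, of which 1 of 33467 bp in crypts meets 3 in villi.

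*Fgfr3*, an FGF receptor found in several epithelia, had 1 H3K4me3 and 1 H3K4me1 peak per compartment. Its H3K4me3 peak measured 3527 bp in crypts and 3323 bp in villi, with scores of 340 and 226. H3K4me1 covered all of it in both compartments, in peaks of 6017 and 5830 bp. *Fgfr4*, the receptor for the ileal hormone FGF15, had the narrowest start-site peaks but for *Areg* in crypts. Its H3K4me3 peak went from 1349 bp in crypts to 986 bp in villi, and 5.15% of start-site pairs had a lower width ratio. The score went from 149 to 62.6, with 2.90% of pairs lower. The H3K4me1 peak on the *Fgfr4* start site was also narrower in villi, at 1238 bp against 2256 bp, while its score was 20.3 against 19.7. Both receptors thus carried H3K4me3 over their starts in crypts and villi, and for *Fgfr4* all 3 of its H3K4me1 peaks were shared and narrower in villi.

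*Egfr*, the receptor of EGF, amphiregulin and epiregulin, had a start-site H3K4me3 peak of 2195 bp in crypts (score 414) and 2299 bp in villi (score 220). Its introns held most of its H3K4me1, with 13 peaks in the gene window in crypts, 12 of them shared, and 16 in villi, 14 of them shared. The highest-scoring crypts peaks lay together, at 47441, 50687 and 56123 bp into the gene, with scores of 54.7, 41.7 and 36.8. The first of them ranked 1577 of 54642 in its list. In villi the same stretch held peaks with scores of 21.2, 30.9, 25.5 and 31.7. A villi H3K4me3 peak 148808 bp into the gene (chr11:16901011-16901675, 665 bp, score 11.7) had no counterpart in crypts, although H3K4me1 was present there in both compartments. It ranked 16290 of 16977 by score.

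*Erbb2* and *Erbb3*, the partner receptors, had the largest share of their windows under H3K4me3. In crypts it was 14.8% for *Erbb2* and 26.8% for *Erbb3*, and in villi 18.0% and 29.7%, against medians over all genes of 2.68% and 2.59%. A part of this belongs to neighbours, since the *Erbb2* window takes in the start of *Mien1* and the *Erbb3* window that of *Pa2g4*. Without the peaks at those starts *Erbb3* still led, at 18.5% in crypts and 22.5% in villi, while *Erbb2* had 11.2% and 13.8% and *Fgfr3* 13.9% and 13.1%, so that the place of *Erbb2* in crypts depends on its neighbour. The share also depends on window length, 35233 bp for *Erbb2* and 32113 bp for *Erbb3* against 171705 bp for *Egfr*. In bases covered, with all peaks of a window counted, *Lrig1* led in crypts (10785 bp, *Erbb3* 8621 bp) and *Erbb3* in villi (9549 bp). The *Erbb2* start-site peak measured 3951 bp in crypts and 4874 bp in villi, and 92.0% of pairs had a lower width ratio. An H3K4me1 peak inside *Erbb2*, 12143 bp from its start in crypts, was present in both (4836 and 4552 bp), and its score of 64.7 in villi ranked 48 of 55341, after 53.6 and rank 1754 of 54642 in crypts. The *Erbb3* start-site peak had a score of 770 in crypts, rank 8 of 16489, and 392 in villi, rank 536 of 16977. In crypts it was 4713 bp wide (chr10:128586149-128590861) and a second peak of 1221 bp lay 4580 bp into the gene. In villi 1 peak of 7220 bp (chr10:128583616-128590835, rank 97 by width) spanned both places.

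*Lrig1*, the negative regulator of the EGF receptors, had the widest H3K4me1 peak of the 10 genes in each compartment and the widest H3K4me3 peak in crypts, while in villi the start-site H3K4me3 peaks of *Erbb3* and *Erbb2* were wider. Its start-site H3K4me3 peak was 9386 bp wide in crypts (chr6:94692428-94701813), rank 12 by width of 16489, and 4782 bp in villi (chr6:94696777-94701558), rank 501 of 16977. Only 0.678% of 11208 start-site pairs had a lower width ratio. The crypts peak extended further into the gene, and villi H3K4me3 covered 50.9% of it. The H3K4me1 peak of 33467 bp that lies in the gene body in crypts (chr6:94664049-94697515) was the widest of 54642, the next being 28703 bp. In villi 3 peaks of 6456, 18347 and 8073 bp lay there and covered 92.7% of it. H3K4me1 was thus present over nearly the whole stretch in both compartments, called as 1 peak in crypts and in pieces in villi. Peak widths, and whether a stretch is called whole or in pieces, depend on read depth, which is unknown. Merging peaks under 1 kb apart brought the widths closer, to 34807 bp in crypts and 27168 bp in villi. An H3K4me3 peak in crypts alone, 17813 bp into the gene, was 639 bp wide with a score of 12.8, rank 712 of 1101 among crypts-only peaks, and it is the only crypts-only H3K4me3 peak of the 10 genes. A shared intronic H3K4me3 peak lay 22994 bp into the gene in crypts and went from a score of 17.8 to 33.9 in villi.

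*Areg* and *Ereg* are neighbours, with 46 kb and no other protein-coding gene between them, and they were the exceptions in the direction of the H3K4me3 scores. The *Areg* start-site peak had a score of 101 in crypts and 118 in villi, and widened from 1072 to 1641 bp, with 97.7% of start-site pairs lower in width ratio. The *Ereg* peak had scores of 61.2 and 111 and widths of 2623 and 2965 bp, with 97.7% of pairs lower in score ratio and 85.3% lower in width ratio. They were 2 of the 8 genes with a paired start-site H3K4me3 peak, and the other 6 had the higher score in crypts, while 18.4% of all start-site pairs scored higher in villi. H3K4me1 at the *Ereg* start went the other way in score, from 45.6 in crypts to 19.4 in villi, at widths of 4276 and 4600 bp. *Ereg* also had 3 villi H3K4me1 peaks without counterpart in crypts, 495 to 1531 bp wide with scores of 10.5 to 16.9. Of all villi H3K4me1 peaks 17.9% had no counterpart, and 25.9% of all gene windows held such a peak. At *Areg* the H3K4me1 peak over the start widened from 1529 to 2816 bp while its score went from 25.4 to 20.5.

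**Figure D3:**
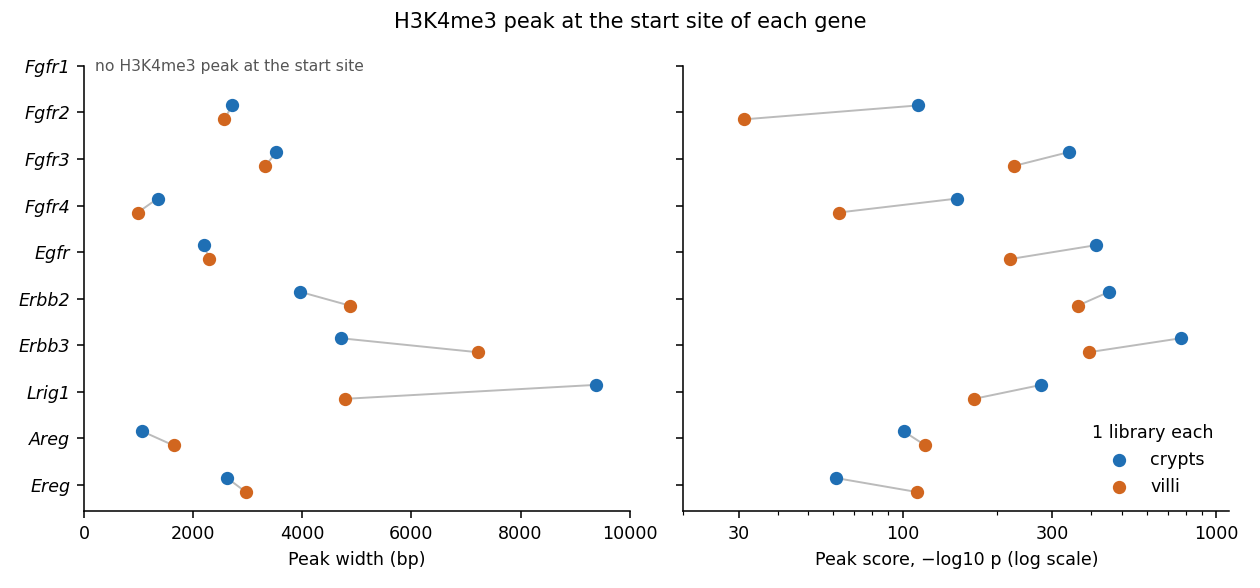
Width (bp) and score (−log10 p, log axis) of the highest-scoring H3K4me3 peak at the start site of each gene, blue for crypts and orange for villi, 1 library each. *Lrig1* narrows from 9386 to 4782 bp, and *Areg* and *Ereg* alone have the higher score in villi.

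Over the 8 paired start-site peaks the log2 ratio of villi to crypts width had a median of -0.01 and ran from -0.97 for *Lrig1* to 0.61 for *Areg*, with 4 wider in each compartment. Over all 11208 such pairs the median was -0.04 with quartiles of -0.16 and 0.08. *Lrig1*, *Fgfr4*, *Areg*, *Erbb2* and *Ereg* lay outside these quartiles. *Erbb3* is not among the 8, since 1 villi peak met 2 crypts peaks. The share of the gene window under peaks had a median over the 10 genes of 7.36% in crypts and 7.09% in villi for H3K4me3, and of 20.7% and 23.3% for H3K4me1. Over all genes the H3K4me1 medians were 5.11% and 4.92%. Genes without any peak are included in the medians over all genes, so that these values set marked genes beside marked and unmarked ones.

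**Figure D4:**
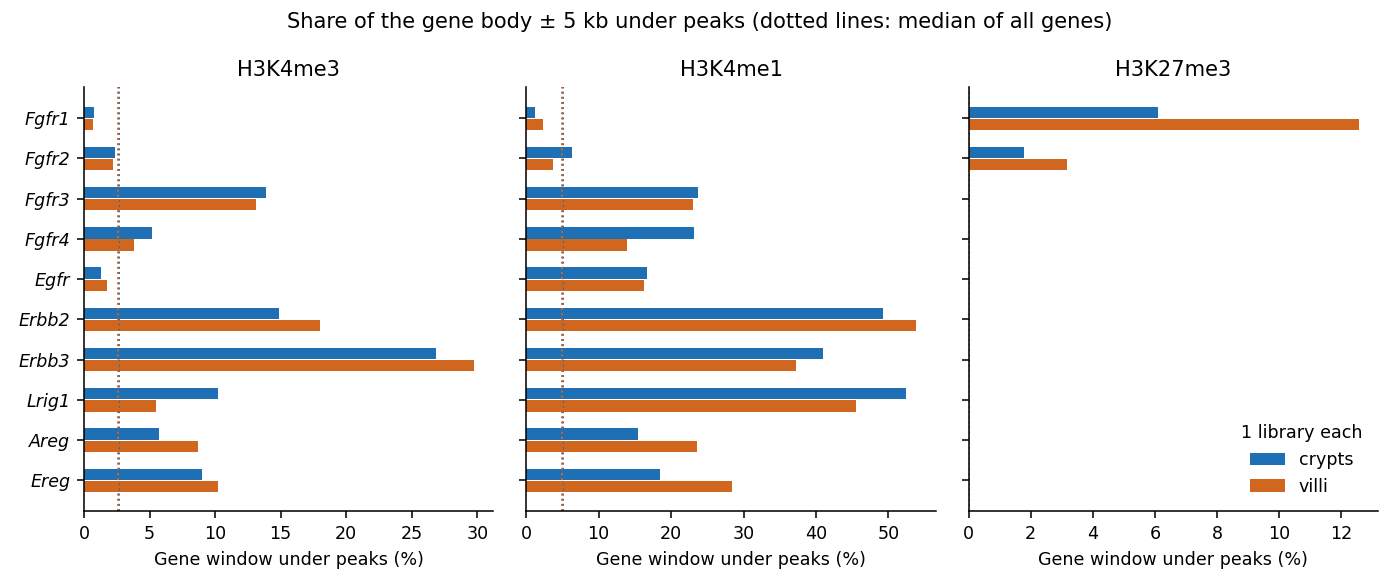
Share of each gene window (body and 5 kb on either side, %) under peaks of 3 marks, blue bars for crypts and orange for villi, 1 library each, with dotted lines for the median over all genes. *Erbb3* leads for H3K4me3 with 26.8% and 29.7%, *Lrig1* in crypts and *Erbb2* in villi lead for H3K4me1, and only *Fgfr1* and *Fgfr2* have H3K27me3.

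H3K4me1 covered the start-site H3K4me3 peaks to different extents. At *Fgfr3* and *Areg* it covered 100% in both compartments, at *Fgfr4* 100% in crypts and 96.8% in villi, and at *Ereg* 90.6% and 99.4%. At *Fgfr2* it covered 83.7% in crypts and 67.8% in villi. At *Egfr*, *Erbb2*, *Erbb3* and *Lrig1* it lay mostly on either side of the start, covering 53.5%, 61.2%, 56.7% and 69.3% in crypts and 49.5%, 64.4%, 57.2% and 55.9% in villi. Over all start-site H3K4me3 peaks the medians were 52.9% in crypts and 50.03% in villi.

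Other genes of the pathways were taken from a list of 61, of which 60 were in the annotation (*Spry3* was not matched). The group labelled FGF ligands holds 22 genes of the FGF family, not all of which encode secreted ligands. Of these 22, 9 had H3K27me3 alone, 3 had both marks, 3 had H3K4me3 alone and 7 had neither. These numbers were the same in crypts and villi. Over all genes, H3K27me3 alone was at 6.56% in crypts and 8.26% in villi, and H3K4me3 alone at 50.8% and 49.8%, which are the shares to set beside the counts of the other groups too. Of the 9 further EGF family ligands, 4 had H3K4me3 alone in each compartment. *Erbb4*, the remaining receptor of the EGF family, had H3K27me3 alone in both. All 6 adaptors (such as *Grb2*) and *Lrig2* and *Lrig3* had H3K4me3 alone in both. Of 17 feedback inhibitors and target genes, 14 had H3K4me3 alone in crypts and 13 in villi.

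The state was the same in crypts and villi for 56 of the 60 genes, near the 93.9% of all genes. The neuregulin gene *Nrg1*, a ligand of ERBB3 and ERBB4, had an H3K27me3 peak at its promoter in villi alone (930 bp, score 17.0). *Nrg2*, its relative, had an H3K4me3 peak in crypts alone (792 bp, score 10.2). *Klb*, the co-receptor for FGF15 and FGF21, had H3K27me3 in crypts alone (426 bp, score 10.1), and *Etv1*, a transcription factor downstream of FGF receptors, had it in villi alone (1255 bp, score 13.4). Over all genes, an H3K27me3 promoter peak in villi alone was found for 3.45% and in crypts alone for 0.592%, and an H3K4me3 promoter peak in crypts alone for 1.04%.

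**Figure D5:**
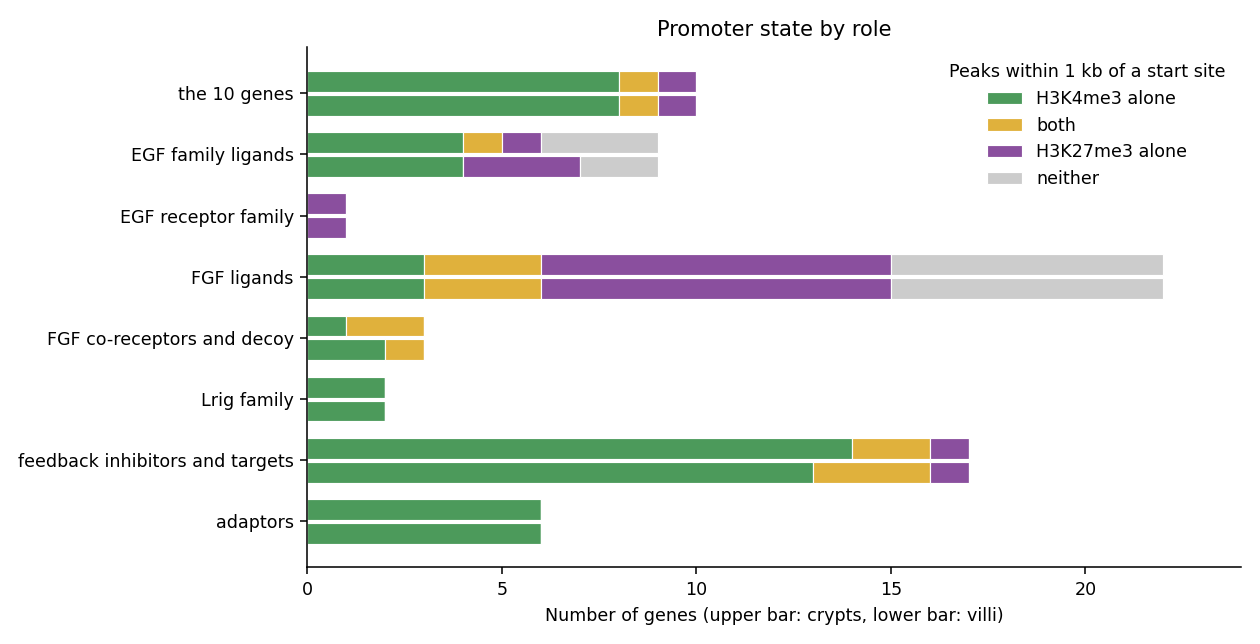
Number of genes by promoter state (peaks of H3K4me3, of H3K27me3, of both or of neither within 1 kb of a start site) for the 10 genes and for each role in the pathway list, upper bars for crypts and lower bars for villi. The 10 genes have the same state in both, and the group labelled FGF ligands holds 9 genes with H3K27me3 alone.

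The labelled compartments were compared with marker genes. H3K4me3 was at 5 of 6 crypts marker promoters in crypts and 4 of 6 in villi, the difference being *Olfm4*, and at 7 of 7 villi markers in both. At lymphocyte markers it was at 0 of 4 in crypts and at 3 of 4 in villi (*Ptprc*, *Cd3e* and *Cd8a*), while 1.21% of all genes had an H3K4me3 promoter peak in villi alone and 57.0% and 57.1% had one in crypts and in villi. Of 7 fibroblast and smooth muscle markers it was at 2 in crypts and 3 in villi (*Col1a1* added), and of 3 endothelial markers at 0 and 1 (*Kdr*). All of these fibroblast, smooth muscle and endothelial promoters with H3K4me3 carried H3K27me3 as well. So did *Cd3e* in villi and 2 of the crypts markers in each compartment, and none of the villi markers. Both marks were at 6.13% of all genes in crypts and 7.29% in villi. The part of these cells in the differences between crypts and villi at the 10 genes was not tested.

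The limits of the rule left few peaks in doubt. The peak nearest to the 5 kb limit from within was an H3K4me1 peak 3934 bp beyond *Ereg* in crypts (score 21.2), and the nearest from without was one 6117 bp beyond *Egfr* in crypts (score 10.2).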

How the data were processed

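Crypts and villi of mouse small intestine were profiled by ChIP-seq with 5% Drosophila chromatin as spike-in, 1 library per compartment and mark plus inputs. Per the methods and the submitters' processing notes, reads were aligned to mm10 with bowtie 1.1.2, duplicates were removed, and peaks were called on each library with MACS2 2.1.1 at p 1e-10. The deposited lists give the position of each peak and its −log10 p-value, used here as the score. Numbers are missing from the peak names in all 8 lists, so calls had been removed by a step not given in the sources used here, and counts, ranks and overlaps describe the lists as deposited. Spike-in scaling does not enter these calls, read depth is unknown, and H3K9me2 lists (6 and 3 peaks, none over the 10 genes) and inputs were not used. Scores, widths and numbers of peaks depend on depth, so none of them is comparable in absolute terms between libraries.

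Peaks were assigned to RefSeq genes of GRCm38.p6 within 5 kb, to promoters within 1 kb of a start site, and called shared at an overlap of 1 bp or more (Python 3.11.15, checked with bedtools 2.31.1 and on 3000 simulated peaks, of which all 2000 planted overlaps were found). Alternatives were other windows, merging, a 50% reciprocal overlap, the top 50% of each list by score and GENCODE M21 models. The members and lists were chosen with earlier results of these data known. Named genes are the 10 members, listed pathway genes whose H3K4me3 or H3K27me3 promoter call differs between compartments, and the 3 genes most like *Fgfr2* in share under peaks. Named after their values were seen were *Dmbt1*, *Mien1* and *Pa2g4* (start sites under described peaks), *Erbb4*, *Grb2*, *Lrig2*, *Lrig3* and *Spry3* of the pathway list, and the markers whose call differs.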

Additional observations from a re-analysis of the deposited data

How the results depend on the processing

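No paired analysis was possible because each compartment and mark has 1 library and no test was run. Of the alternatives tried, 127 values stayed within 1.5-fold of the main one and 44 moved further. The 127 include values of 0 that a stricter setting could not change, such as those of H3K9me3. They also include the rank of the *Dmbt1* peak at least 1 kb and 5 kb from villi peaks, fixed by its distance of 40163 bp. The tally is therefore no measure of stability. GENCODE M21 models, added after seeing the data, moved most, through the long span of *Fgfr2*. Peaks over the 10 genes became 45 and 41 for H3K4me3 (crypts, villi), 162 and 162 for H3K4me1, 14 and 39 for H3K27me3, and 3 and 3 for H3K9me3. Peaks in one compartment alone became 6 and 3, 29 and 25, 26 for villi H3K27me3, and 1 and 1 for H3K9me3. The share of the summed windows under peaks became 2.71% and 2.35% for H3K4me3 (6.18% and 5.85% with RefSeq), 11.5% and 11.5% for H3K4me1 (22.9% and 21.5%), 1.49% and 2.99% for H3K27me3 (0.976% and 1.93%), and 0.0649% and 0.0649% for H3K9me3.

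With the top 50% of each list by score, peaks fell to 6 and 7 for H3K4me3, 29 and 31 for H3K4me1 and 0 for crypts H3K27me3, marked promoters to 5 and 5 for H3K4me3 and 0 for crypts H3K27me3, and promoters with both marks to 0 in crypts and 0 in villi. Set against the whole other list, the top 50% held 0 crypts and 0 villi H3K4me3 peaks and 0 crypts and 0 villi H3K4me1 peaks without counterpart, where the whole upper parts of the lists held 0 and 0 of H3K4me3, so that no other count was possible, and 4.81% and 4.94% of H3K4me1. A reciprocal overlap of 50% raised peaks without counterpart to 2 for crypts H3K4me3, 11 and 16 for H3K4me1, and 3 and 2 for H3K27me3. Merging peaks under 1 kb apart left 4 villi H3K4me1 peaks without counterpart. The gene body alone gave 0.582% under crypts H3K27me3.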
